A study of Mus musculus with 51 samples.

Results

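Secreted trophic factors are among the proteins by which astrocytes support neurons, vessels and one another. The 8 genes described here are 7 factor genes, Bdnf, Ntf3, Gdnf, Cntf, Vegfa, Fgf2 and Igf1, and Ntrk2, whose product TrkB is the receptor of BDNF. They were taken by name from the 22359 coding genes of the annotation, and every peak of H3K27ac or H3K4me1 that overlapped a gene body with 20 kb on each side was assigned to that gene. These windows held 614 of the 803595 peaks in 6 lists, and for Bdnf a distal site 164 kb upstream of its first coding start was examined as well.

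To follow the chromatin of astrogliogenesis, the study differentiated mouse embryonic stem cells of a C57/BL-6 background in vitro through astrogliogenic neural precursor cells (aNPC) to early astrocytes (eA, day 1) and mature astrocytes (lA, day 5). The aNPC were grown with EGF and FGF-2 in N2-supplemented DMEM-F12, and eA and lA in DMEM with serum and LIF, so that stage and medium cannot be told apart. The labels of these 3 groups name no treatment or genetic change. Each mark was sequenced from 2 replicates per stage, whose reads the authors merged before peaks were called. Each stage and mark therefore has 1 list, a difference between stages has no replicate check, and no p-value is given. The read depth behind the lists is unknown.

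H3K27ac is an acetylated histone residue found at active promoters and enhancers, whereas H3K4me1 marks enhancers more broadly, including ones that do not carry acetylation. Neurotrophins such as BDNF and NT-3 act on Trk receptor tyrosine kinases, GDNF on the RET complex, CNTF on a receptor that signals through gp130 and STAT3, and VEGF-A, FGF-2 and IGF-1 on receptor tyrosine kinases of their own. TrkB is known in astrocytes mostly as a truncated form that lacks the kinase domain.

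The H3K27ac lists held 79413 peaks for aNPC, 83433 for eA and 92700 for lA, and the H3K4me1 lists between 154238 and 208333 peaks. The strength of a peak is given as the −log10 of its q-value, which depends on depth, so that values of different stages set side by side are those of each list and not a measured change. The rank, written as the top percent of the list that a peak reaches, was used to set stages against one another, and it depends in turn on the length of the list. A threshold of 5 on this scale keeps 78.3%, 78.9% and 77.2% of the H3K27ac peaks and 80.1%, 77.3% and 79.7% of the H3K4me1 peaks for aNPC, eA and lA. The labelled cell types were set against promoter H3K27ac at marker genes. Of 7 astrocyte markers, 4, 4 and 5 had a promoter peak in aNPC, eA and lA. The shares of all coding genes with a promoter H3K27ac peak were 50.6%, 53.2% and 48.2%. The promoter of Aqp4, the astrocyte water channel, had one in lA alone, and Gfap, the astrocyte intermediate filament, had one at every stage. Aldh1l1, another astrocyte gene, had one at no stage, and S100b had one in aNPC alone. None of 3 microglial, 3 oligodendrocyte, 3 fibroblast or mural and 2 pluripotency markers had a promoter H3K27ac peak at any stage. Of 4 neuronal markers, Tubb3 and Map2 had one at each stage. Of the progenitor markers, Nes and Sox2 had one at each stage and Olig2 at none. The share of other cells in the cultures was not tested.

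Summed over the 8 genes, H3K27ac peaks in the windows numbered 60 for aNPC, 74 for eA and 90 for lA. The acetylated sequence came to 31.1 kb, 42.0 kb and 53.2 kb. H3K4me1 peaks numbered 109, 137 and 144 in the same order and covered 63.4 kb, 85.8 kb and 82.5 kb. The stages differed less with lists of equal length. When all lists of a mark were cut to the length of the shortest, the numbers were 60, 72 and 76 for H3K27ac and 109, 113 and 116 for H3K4me1. The window of Ntrk2, which is 367 kb long, supplied 39, 27 and 38 of the H3K27ac peaks. Without it, the other 7 genes had 21, 47 and 52. More H3K27ac peaks in lA than in aNPC were called at 6 of the 8 genes, against 39.0% of all coding genes, and at 7 of the 8 in eA than in aNPC, against 41.2%. Only Ntrk2 had fewer in lA than in aNPC, as did 24.2% of coding genes, and Ntf3 had none at either stage. For H3K4me1 the corresponding numbers were 6 of 8 in lA against 51.5%, and 6 of 8 in eA against 48.9%. With lists of equal length, H3K27ac peaks were still more numerous in lA at 6 genes, against 33.2%, and in eA at 7, against 38.7%, while H3K4me1 peaks were more numerous in lA at 5, against 28.6%, and in eA at 4, against 30.2%. Igf1 had the widest gap in H3K27ac peaks, from 2 in aNPC to 13 in lA, a difference that 1.29% of coding genes reach or exceed, but 8 of the 13 lA peaks had a −log10 q under 5. At Cntf, with 1 peak in aNPC and 6 in lA, that share was 7.44%, and at Bdnf, Gdnf and Vegfa, with 4 more peaks in lA each, it was 11.1%. Ntrk2 had 1 peak fewer in lA than in aNPC while the acetylated length in its window went from 16.5 kb in aNPC to 24.7 kb in lA. Counting only peaks with a −log10 q of at least 5 changed this order. Igf1 then had 2 peaks for aNPC, 8 for eA and 5 for lA, which left a gap of 3, and Ntrk2 had 26, 24 and 30, so that its direction turned and 7 of the 8 genes had more in lA than in aNPC, against 36.0% of coding genes at that threshold. The widest gap was then at Vegfa, from 1 to 6, followed by Bdnf, Cntf and Ntrk2 with 4 more peaks in lA each.

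**Figure D1:**
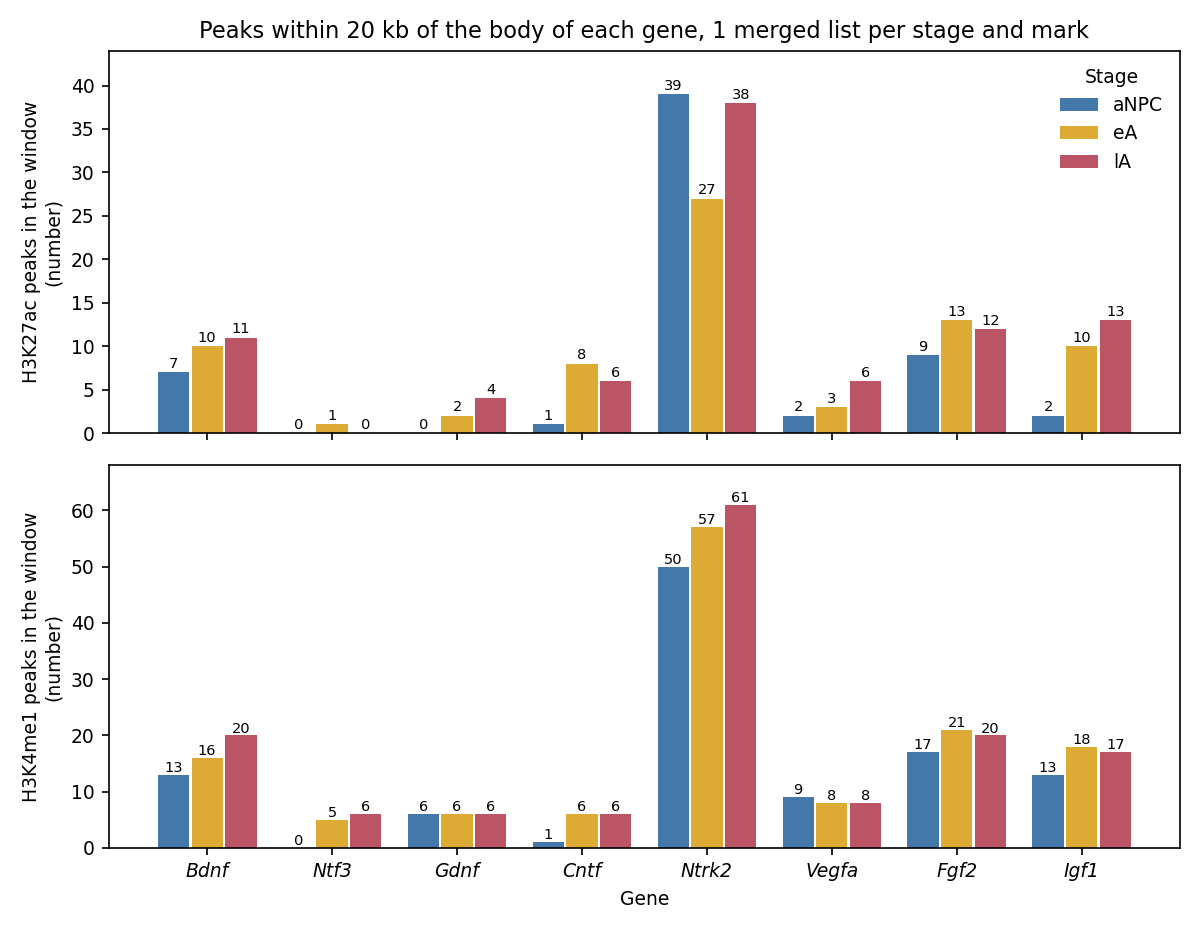
Number of H3K27ac peaks (upper panel) and H3K4me1 peaks (lower panel) in the window of each gene, with 1 bar per stage from 1 merged list and no error bars. Igf1 goes from 2 to 13 H3K27ac peaks between aNPC and lA (2 to 5 with a −log10 q of at least 5), and Ntrk2 holds between 27 and 39 at every stage (24 to 30 with that threshold).

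A promoter was the stretch from 1 kb before a coding start to 100 bp after it. H3K27ac at promoters was called for 3 of the 8 genes in aNPC (Bdnf, Ntrk2 and Vegfa), for 7 in eA (all but Ntf3) and for 6 in lA (all but Ntf3 and Igf1). Among all coding genes, the corresponding shares were 50.6%, 53.2% and 48.2%. H3K4me1 was called at 6 promoters in aNPC, where Ntf3 and Cntf lacked it, and at all 8 in eA and lA, against 55.4%, 53.6% and 52.7% of coding genes. The peaks of Ntf3 were weak, and without them H3K4me1 was at 7 promoters in eA with a −log10 q of at least 5, and at 7 in both eA and lA with lists of equal length. The 3 genes acetylated in aNPC kept a promoter peak at all stages, as did 45.2% of coding genes, and Ntf3 had none at any, as did 44.2%. At 4 genes, Gdnf, Cntf, Fgf2 and Igf1, no promoter H3K27ac peak was called in aNPC and one was called in eA, a change seen at 4.23% of coding genes. The eA peak of Igf1 had a −log10 q of 4.21, so that with a minimum of 5 it was not counted and 6 genes had a promoter peak in eA. At Gdnf, Cntf and Fgf2 a peak was also called in lA, as at 1.68% of coding genes. Promoter acetylation goes with the CpG content of the start in general. Of coding genes with an observed to expected CpG ratio of at least 0.6 at a start, 84.6% had promoter H3K27ac in aNPC, 87.4% in eA and 78.8% in lA, whereas below that ratio the shares were 17.1%, 19.5% and 18.0%. Gdnf (0.804) and Fgf2 (0.750) were above it and had no promoter H3K27ac in aNPC. The other genes without it in aNPC, Ntf3 (0.422), Cntf (0.266) and Igf1 (0.481), were below.

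**Figure D2:**
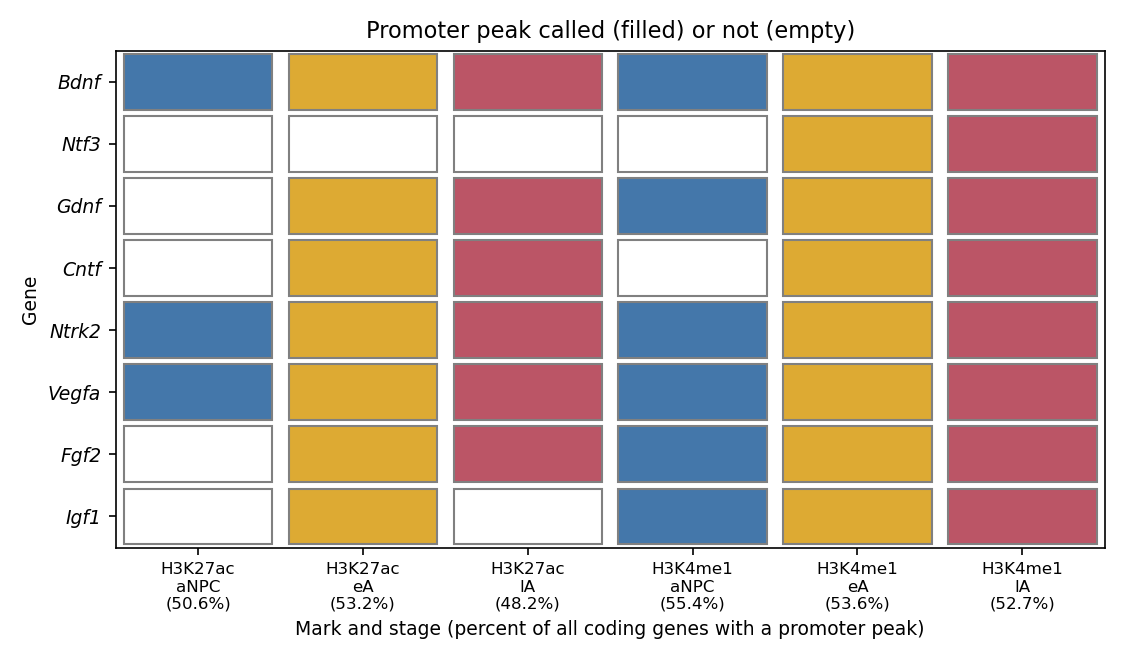
Promoter peaks of the 8 genes by mark and stage, with a filled square where a peak was called and the share of all coding genes with such a peak under each column. Gdnf, Cntf, Fgf2 and Igf1 are empty for H3K27ac in aNPC and filled in eA, and Ntf3 is empty for H3K27ac throughout.

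Bdnf encodes brain-derived neurotrophic factor, which acts on neuronal survival and synapses. The gene (ENSMUSG00000048482.7, mm9 chr2:109514857-109567204, plus strand) has 7 coding starts and no other coding gene in its window. H3K27ac stood at 2 groups of these starts at every stage. Start 3, chr2:109517205-109518265, carried the highest-ranking H3K27ac peak of any of the 8 genes in each list, with a −log10 q of 252 in aNPC (top 0.815% of the list), 88.4 in eA (6.32%) and 80.0 in lA (1.20%). The region over starts 5 to 7, chr2:109533673-109535026, reached the top 10.4%, 6.52% and 5.24%. No H3K27ac peak reached starts 1, 2 or 4 at any stage. H3K4me1 over start 1 was 26.4 in aNPC (chr2:109514115-109515152, top 15.9%), 17.5 in eA (chr2:109514275-109515226, 23.0%) and 17.8 in lA (chr2:109514588-109515301, 18.2%), where a smaller peak of 6.17 lay beside it. Between starts 2 and 3, in the promoter stretch of start 3, it was 7.35 in aNPC (chr2:109516243-109516830, top 64.5%), 18.8 in eA (chr2:109516392-109517196, 20.6%) and 11.5 in lA (chr2:109516506-109516829, 36.7%). Just past start 3, inside the acetylated region, it was 6.03 for aNPC, 4.13 for eA and 7.86 for lA. Upstream of start 5 a weak H3K4me1 peak was called in eA (4.15) and lA (6.72) and none in aNPC, whereas starts 6 and 7 had one of 7.99 in aNPC alone.

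Beyond its promoters, Bdnf had 7 distal H3K27ac regions, a region being the overlapping peaks of the 3 lists joined. Among them 3 were called at every stage. The strongest in eA and lA lay downstream of the gene, 69.1 kb from its first start (chr2:109582791-109585053), in the top 31.2% of the aNPC list, 14.2% in eA and 9.20% in lA. Its H3K4me1 was the strongest distal one of Bdnf in each list and went the other way in rank, from the top 2.95% in aNPC (chr2:109582578-109583957) to 3.70% in eA (chr2:109582527-109583690) and 8.22% in lA (chr2:109582824-109583818). In aNPC the strongest was an intronic peak of 992 bp 1.52 kb from start 3, in the top 10.5%. The other 4 regions were called in both eA and lA and not in aNPC, and 3 of them overlapped an H3K4me1 peak in aNPC. One of these, chr2:109546356-109547600 in an intron, had H3K27ac of 12.0 in eA and 12.1 in lA and H3K4me1 of 13.8 for aNPC, 14.5 for eA and 15.3 for lA. The region without aNPC H3K4me1, chr2:109575113-109575468, lies downstream of the gene and had H3K27ac of 5.43 in eA and 15.8 in lA.

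The distal site of Bdnf is the stretch that the primer pair of the study for Runx2 binding near Bdnf amplifies. The pair matched the mm9 genome exactly at 1 place, chr2:109350597-109350673, which spans 77 bp and lies 164 kb upstream of the first coding start of Bdnf, the nearest coding gene, and 230 kb from the next, Mettl15. It lies in no annotated exon. The plus strand is shown with the primer-binding ends in capitals.
Bdnf distal site: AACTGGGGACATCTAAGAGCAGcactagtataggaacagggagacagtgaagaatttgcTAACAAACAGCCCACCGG
All 6 lists had a peak over this stretch. H3K27ac there ranked in the top 31.4% in aNPC (chr2:109350230-109351617), 28.5% in eA (chr2:109350468-109351520, −log10 q of 21.3) and 23.9% in lA (chr2:109350158-109350814, 17.3), with the summits 34 bp, 118 bp and 9 bp from the centre of the amplicon. H3K4me1 was 47.8 in aNPC (top 2.46%), 38.3 in eA (2.64%) and 21.2 in lA (12.0%). Both marks were thus called at the site before as well as after differentiation, and the rank of H3K4me1 was lower in lA than in the earlier lists. The letters TGTGGT, the core of the RUNX motif, do not occur in the amplicon on either strand. They occur at 2 places in the joined acetylated region of 1470 bp, the nearer 338 bp from the amplicon. Both are shown with 27 bases on each side and motif letters in capitals, the first holding TGCCAA, the NF1 half-site, as well and the second having the RUNX letters on the minus strand.
Bdnf RUNX letters 1, chr2:109350984-109351043: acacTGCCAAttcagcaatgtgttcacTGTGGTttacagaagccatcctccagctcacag
Bdnf RUNX letters 2, chr2:109351481-109351540: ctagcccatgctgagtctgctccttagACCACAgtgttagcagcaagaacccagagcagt
Within the gene, the eA summit of the intronic region at chr2:109546356-109547600 also had TGTGGT in the surrounding 200 bp, as 13.0% of all eA H3K27ac summits do.
Bdnf eA, chr2:109547023-109547222: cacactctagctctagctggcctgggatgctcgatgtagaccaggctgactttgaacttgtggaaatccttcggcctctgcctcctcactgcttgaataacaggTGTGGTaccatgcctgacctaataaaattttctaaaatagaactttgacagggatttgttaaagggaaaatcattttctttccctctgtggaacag

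Ntf3 encodes neurotrophin-3, the ligand of TrkC. Of the 8 genes (ENSMUSG00000049107.7, chr6:126051431-126116762, minus strand) it had the fewest peaks. In aNPC no peak of either mark fell in its window, as at 25.5% of coding genes for H3K27ac and 16.9% for H3K4me1. H3K4me1 peaks numbered 5 in eA and 6 in lA, and 1 peak in eA and 2 in lA lay at the promoter, with a −log10 q of 4.42 in eA (chr6:126116614-126117096, top 85.6%) and of 4.08 and 5.24 in lA (chr6:126116545-126116737 and chr6:126116951-126117312, top 89.9% and 78.3%). The strongest distal H3K4me1 was 6.67 in eA (chr6:126055682-126056407, top 64.9%) and 11.4 in lA (chr6:126114730-126115055, top 37.9%). A single H3K27ac peak was called in eA, in an intron 59.8 kb into the gene at chr6:126056692-126057189, with a −log10 q of 7.85 (top 58.5%). Its 200 bp around the summit held TGANTCA, the AP-1 letters, with TGCCAA and the STAT letters TTCNNNGAA. Among all eA summits, 5.70% have TGANTCA, 11.5% TGCCAA and 6.14% TTCNNNGAA. All 3 are in capitals here.
Ntf3 eA, chr6:126056967-126057166: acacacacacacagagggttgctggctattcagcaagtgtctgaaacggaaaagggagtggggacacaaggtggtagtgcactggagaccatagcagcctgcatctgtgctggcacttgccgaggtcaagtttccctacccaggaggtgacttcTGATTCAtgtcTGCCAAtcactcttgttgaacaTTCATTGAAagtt

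Ntrk2 (ENSMUSG00000055254.7, chr13:58907957-59235331, plus strand) is 327 kb long, has 3 coding starts, and shares its window with no other coding gene. At most 1.06% of coding genes had as many H3K27ac peaks at any stage, and at most 1.19% as many H3K4me1 peaks. These shares were not adjusted for the length of the window, which is 367 kb here. Its promoter region, chr13:58907951-58910412, was acetylated at every stage, in the top 20.1% of the aNPC list, 13.2% in eA and 8.45% in lA, with a second aNPC peak of 6.13 at start 3 (chr13:58910044-58910226). H3K4me1 at the promoter ranked lower in its own lists, with a best peak of 14.8 in aNPC (top 36.5%), 7.22 in eA (60.9%) and a lone lA peak in the top 69.4% (chr13:58908238-58908703). The best aNPC peak lay around start 2 (chr13:58909039-58909903), and the best eA peak 580 bp past start 1 (chr13:58908112-58908714). Weaker H3K4me1 was called at 4.63 and 8.84 in aNPC and 4.94 in eA.

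Of 46 distal H3K27ac regions at Ntrk2, 18 were called at all stages, 12 in aNPC and not at all stages, and 16 in eA or lA and not in aNPC. All 18 of the first group overlapped an aNPC H3K4me1 peak, as did 10 of the second and 5 of the third. Rank within the lists separated the regions of the first group. An intronic region 25.5 kb from the first start, chr13:58932758-58934158, had H3K27ac of 10.3 in aNPC (top 48.8%), 55.3 in eA (12.3%) and 65.4 in lA (2.12%). Its H3K4me1 was in the top 5.40% for aNPC, 11.5% for eA and 8.22% for lA. A second intronic region, 165 kb from the start (chr13:59072246-59074176), had 4.75 in aNPC (top 79.8%), 37.1 in eA (18.2%) and 57.8 in lA (2.98%). Its aNPC peak (chr13:59073705-59074176) did not overlap its eA peak (chr13:59072547-59073519), and only the wider lA peak joined them. The lA summit also lay outside the aNPC peak, so the aNPC value is from another part of the region. In contrast, 3 regions just downstream of the gene between chr13:59244305 and chr13:59247069 were already high in aNPC. The middle one had 107 (top 6.12%), 69.8 (9.25%) and 43.9 (5.70%). In aNPC and eA, H3K4me1 was highest over the region 285 kb into the gene, chr13:59192522-59194140. It was in the top 0.662% for aNPC, 1.37% for eA and 10.1% for lA, where H3K27ac stood in the top 32.8%, 15.3% and 10.5%. This lA H3K4me1 peak overlapped the region but had its summit past the end of it. The lA H3K4me1 peak with its summit inside the region was in the top 35.4%. In lA the highest H3K4me1 was at 235 kb (chr13:59142409-59143053), in the top 2.04%. The sequence at the lA summit of the region at 25.5 kb is shown with CG dinucleotides in capitals, since it holds none of the 4 motifs searched.
Ntrk2 strongest lA, chr13:58933768-58933967: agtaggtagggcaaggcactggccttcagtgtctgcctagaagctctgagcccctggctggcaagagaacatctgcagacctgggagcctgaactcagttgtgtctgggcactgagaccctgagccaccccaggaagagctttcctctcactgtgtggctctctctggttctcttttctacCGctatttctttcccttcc

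Regions of Ntrk2 called at 1 or 2 stages reached a −log10 q of at most 12.8. With a −log10 q of at least 5 wherever called, 10 appeared in eA or lA and not in aNPC, and 6 appeared in aNPC but not at every stage. Among the first, chr13:59111985-59113211, 205 kb into the gene, had H3K27ac of 10.1 in eA and 10.6 in lA on H3K4me1 of 35.6 in aNPC (top 7.46%). A region at 19.5 kb, chr13:58927196-58927681, had 12.3 in lA alone and no H3K4me1 in aNPC. Its neighbour at 20.5 kb, chr13:58928196-58928654, had 9.44 in lA alone. A region at 340 kb beside the downstream cluster, chr13:59247342-59248221, had 11.7 in lA alone, with H3K4me1 of 19.7 in aNPC. Further peaks in lA alone were 8.16 at chr13:59100240-59100522, 7.81 at chr13:59152781-59153661 and 6.61 at chr13:59187806-59188106, none of them over aNPC H3K4me1. At 123 kb, chr13:59030931-59031479 was called in eA and lA, and at 55.7 kb, chr13:58963489-58963746 in eA alone. Of those called in aNPC, the highest was 20.1 kb upstream of the first start (chr13:58887381-58888301), with 12.8 in aNPC and none later, while H3K4me1 there was in the top 24.0% for aNPC, 36.9% for eA and 89.9% for lA. The others called in aNPC alone had 5.83 at chr13:58943245-58943507, 7.82 at chr13:58969560-58969868, and 8.13 both at chr13:59123587-59123834 and at chr13:59174641-59174844. A region at 61.2 kb, chr13:58968808-58969531, was called in aNPC at 6.51 and in lA at 6.71 and not in eA. The strongest late region whose summit held one of the motifs was at 98.5 kb, chr13:59006204-59006615, with TGCCAA, which 11.0% of lA summits have. It lay beside chr13:59006691-59007604, which was acetylated at every stage, with 5.94 in aNPC, 18.5 in eA and 15.4 in lA.
Ntrk2 lA, chr13:59006256-59006455: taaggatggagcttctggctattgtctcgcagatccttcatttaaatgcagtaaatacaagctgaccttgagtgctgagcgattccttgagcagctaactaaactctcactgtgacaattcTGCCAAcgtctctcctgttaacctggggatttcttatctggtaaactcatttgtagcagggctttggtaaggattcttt

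**Figure D3:**
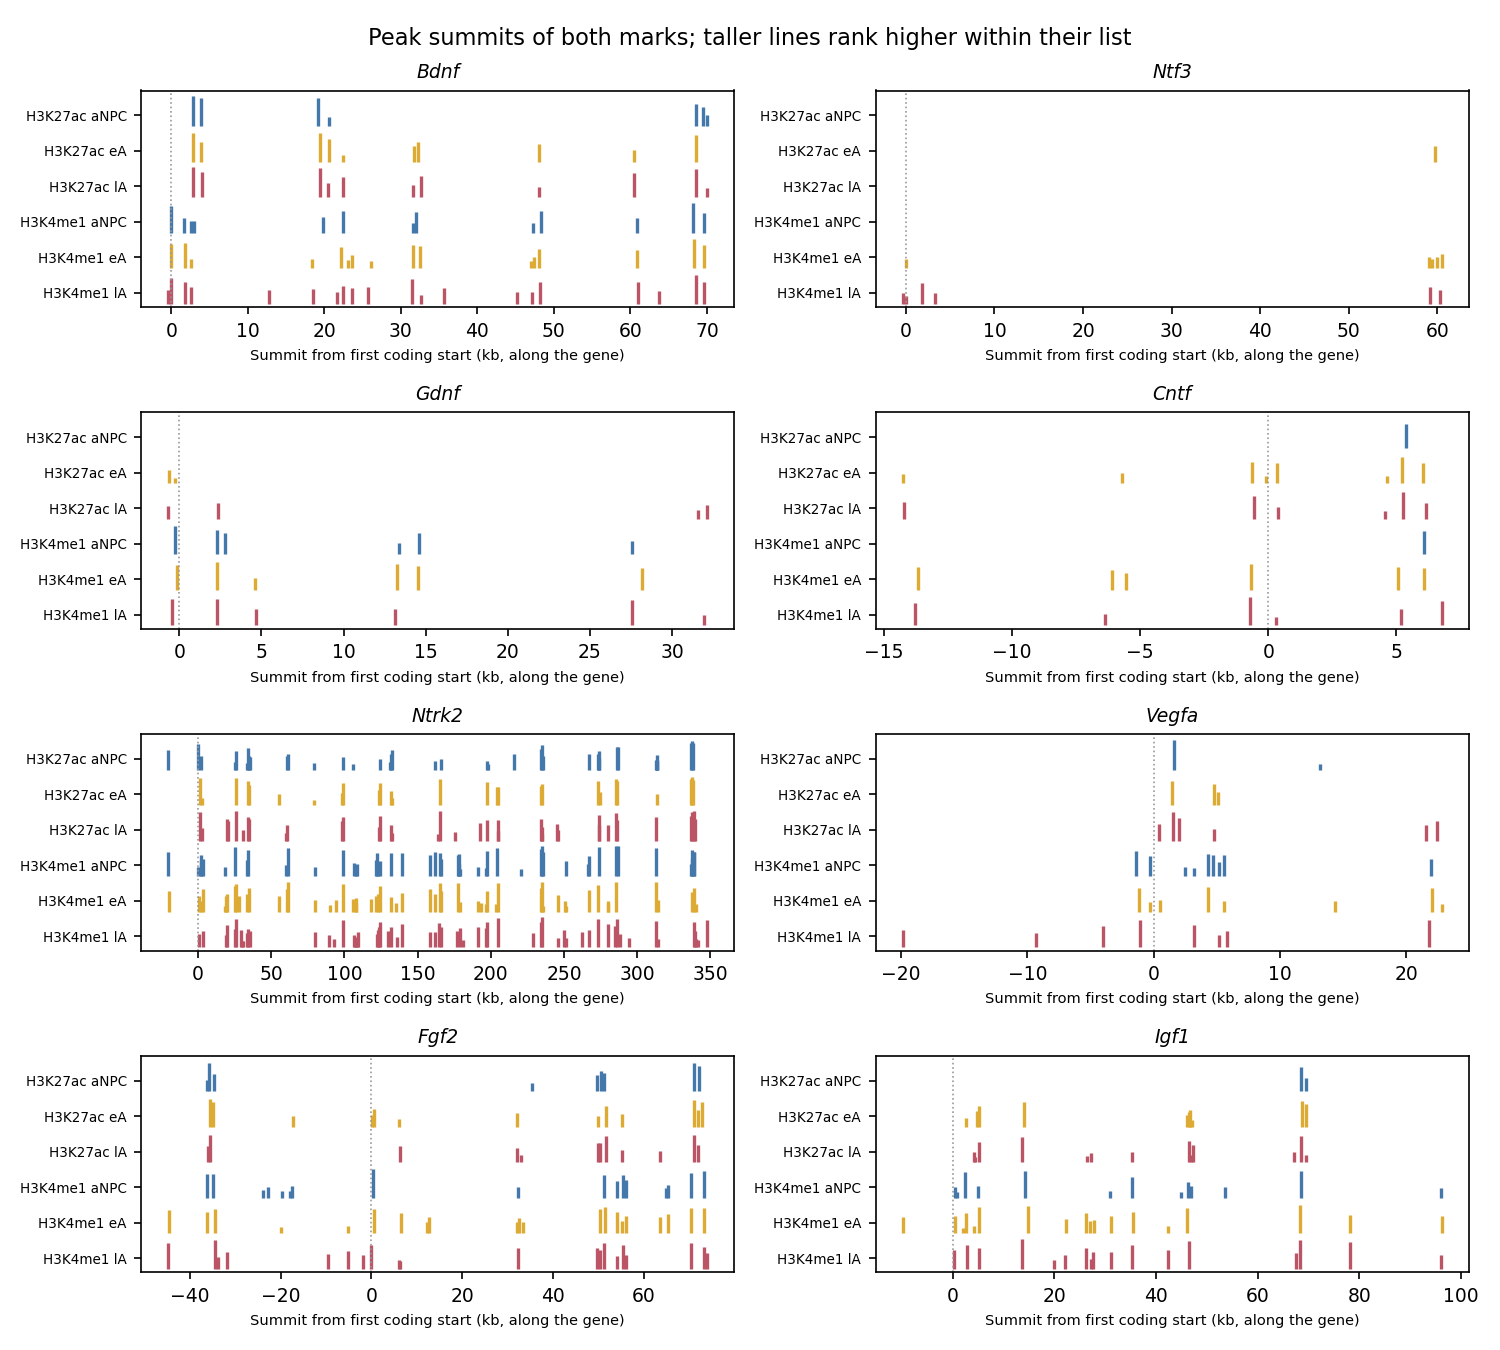
Summits of all peaks by distance in kb from the first coding start of each gene, with 1 row per mark and stage and taller lines for peaks that rank higher in their list. The H3K27ac lines of Ntrk2 near 25.5 kb and 165 kb are taller in lA than in aNPC, where the second lies at 166 kb. The only H3K27ac summits of Igf1 in aNPC lie near 68.6 kb and just beyond.

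Gdnf encodes glial cell line-derived neurotrophic factor, a survival factor for dopaminergic and motor neurons. The gene (ENSMUSG00000022144.3, chr15:7761011-7787575, plus strand) has 1 coding start. No H3K27ac peak lay in its window in aNPC. Its promoter was nevertheless under a broad H3K4me1 peak at each stage, of 36.4 in aNPC (top 6.93%), 17.5 in eA (23.1%) and 18.5 in lA (16.9%). Within it, weak H3K27ac was called in eA at chr15:7760299-7760537 with 6.38 (top 67.3%) and at chr15:7760713-7760918 with 2.55, near the end of the list, and in lA at chr15:7760245-7760463 with 5.75 (68.2%). The 3 distal regions were called in lA alone. The strongest, 2.35 kb into the gene at chr15:7763192-7763539, had 7.15 (top 56.9%) and lay under H3K4me1 of 20.7 for aNPC, 26.3 for eA and 18.6 for lA. The other region past a −log10 q of 5, chr15:7792994-7793242, lies downstream of the gene, in the top 66.4%, and had no H3K4me1 in aNPC. The summit window at 2.35 kb had 9 CG dinucleotides in 200 bp, in capitals here, and none of the 4 motifs.
Gdnf strongest lA, chr15:7763256-7763455: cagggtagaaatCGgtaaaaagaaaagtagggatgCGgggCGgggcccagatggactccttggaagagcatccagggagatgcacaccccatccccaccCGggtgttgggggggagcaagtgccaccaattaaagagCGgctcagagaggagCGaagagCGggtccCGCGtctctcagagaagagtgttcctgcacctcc

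Cntf encodes ciliary neurotrophic factor, a cytokine of the interleukin-6 family that is known from glia. The gene is short (ENSMUSG00000079415.2, chr19:12838150-12840122, minus strand), and Zfp91 also lies in its window. Both marks were absent from its promoter in aNPC and present in eA and lA, a set of states shared by 34 coding genes (0.152%). H3K27ac at chr19:12840587-12841293 was 15.5 in eA (top 36.2%), and at chr19:12840297-12841173 it was 14.6 in lA (28.9%). A smaller eA peak of 3.38 lay just upstream of the start (chr19:12840056-12840370). H3K4me1 over the same stretch was 21.1 in eA (chr19:12840509-12841321, top 16.4%) and 23.3 in lA (chr19:12840556-12841306, top 9.29%). The start is poor in CpG, with an observed to expected ratio of 0.266. A region inside the gene, chr19:12839635-12839985, had H3K27ac of 13.1 in eA (top 40.8%) and 5.37 in lA (72.7%) and none in aNPC. Downstream of the gene, chr19:12833162-12835299 was acetylated at every stage, in the top 26.2%, 17.6% and 13.2%, and it held the sole peak of either mark in aNPC. The strongest distal H3K4me1 was at this region in aNPC and lA (19.6 and 15.4) and upstream of the gene in eA (chr19:12853483-12854807, 14.6). None of the 4 distal regions first called after aNPC overlapped H3K4me1 in aNPC, and 2 of the 4 had a peak with a −log10 q of at least 5. The promoter window at the eA summit held none of the 4 motifs and 1 CG dinucleotide, in capitals.
Cntf promoter eA, chr19:12840645-12840844: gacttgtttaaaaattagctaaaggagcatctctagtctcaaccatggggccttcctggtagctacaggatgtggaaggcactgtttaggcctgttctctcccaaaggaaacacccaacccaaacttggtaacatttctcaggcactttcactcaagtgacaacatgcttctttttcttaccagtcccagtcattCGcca

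Vegfa encodes the main angiogenic factor of the VEGF family. The gene (ENSMUSG00000023951.9, chr17:46153942-46169326, minus strand) has 4 coding starts with a CpG ratio of up to 0.922. Starts 3 and 4 were acetylated at every stage within chr17:46167078-46169093, with 140 in aNPC (top 3.86%), 24.3 in eA (25.7%) and 47.1 in lA (4.89%), where a second peak of 7.63 was called at chr17:46168842-46169038. The strongest promoter H3K4me1 lay upstream of the acetylated stretch, with 22.4 in aNPC (chr17:46170049-46170979, top 21.5%), 16.6 in eA (chr17:46169984-46170899, 25.0%) and 21.9 in lA (chr17:46170046-46170871, 11.1%). Closer to starts 1 and 2 it was 12.8 in aNPC and 4.70 in eA, and at start 3 it was 5.44 in eA. An intronic region, chr17:46164374-46164717, had H3K27ac of 14.8 in eA and 5.21 in lA on H3K4me1 of 15.4 in aNPC. Beside it, chr17:46164140-46164283 had 5.96 in eA alone. The strongest distal H3K4me1 lay beside this region in aNPC (chr17:46164846-46165367, 17.0 and top 31.6%) and over it in eA (chr17:46164339-46165373, 16.9 and top 24.5%). The sole distal H3K27ac peak in aNPC was weak (chr17:46156158-46156338, 2.98, top 97.4%), and the strongest in lA was a separate peak at the downstream end of the promoter region (chr17:46167115-46167458, 13.3, top 31.7%). Downstream of the gene, H3K27ac was called in lA alone at chr17:46146508-46146997 with 9.31 and at chr17:46147642-46147923 with 7.07, under an H3K4me1 peak that reached the top 13.8% of its list in lA. The second of these had the NF1 half-site letters, on the minus strand.
Vegfa lA, chr17:46147690-46147889: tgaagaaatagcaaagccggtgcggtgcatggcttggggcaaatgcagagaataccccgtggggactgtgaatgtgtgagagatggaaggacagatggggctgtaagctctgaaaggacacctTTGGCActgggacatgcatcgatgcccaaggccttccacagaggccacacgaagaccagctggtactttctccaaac

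Fgf2 encodes basic fibroblast growth factor, a mitogen of neural progenitors, and the recombinant protein was a component of the aNPC medium. The annotated gene (ENSMUSG00000037225.6, chr3:37211441-37304299, plus strand) shares its window with Cetn4, Bbs12, Nudt6 and Spata5. The strongest acetylation in the window stood at promoters of these neighbours and not at the coding starts of Fgf2. It accounted for 5 of 9 H3K27ac peaks in aNPC, 5 of 13 in eA and 4 of 12 in lA, for instance in the top 6.07%, 8.58% and 9.97% at chr3:37210937-37213115. Coding starts 1 and 2 of Fgf2 lay under H3K4me1 of 35.9 in aNPC (top 7.26%), 18.2 in eA (21.8%) and 14.6 in lA (26.1%). H3K27ac was called there in eA alone, at chr3:37247178-37247492 (5.68, top 72.7%) and chr3:37247615-37247992 (9.40, top 51.7%). Coding start 3 had H3K27ac of 6.38 in eA and 6.09 in lA and none in aNPC, within chr3:37279046-37279482, and H3K4me1 of 5.51 in aNPC, 5.60 and 7.51 in eA and 11.4 in lA. In the gene, chr3:37298256-37299075 was acetylated at every stage, in the top 47.7%, 36.9% and 16.9%. Next to it, chr3:37297491-37297900 had the strongest distal H3K27ac of aNPC (14.5, top 38.5%) and was called in lA (9.49) and not in eA. Of 5 distal regions called only after aNPC, 2 lay over aNPC H3K4me1, and chr3:37302213-37302609 was one of them, with H3K27ac of 6.10 in eA and 5.68 in lA. The other was chr3:37229912-37230058, called in eA alone in the top 78.9%. Downstream, chr3:37310619-37310841 had 5.08 in lA alone. The strongest distal H3K4me1 was at chr3:37319918-37320750 in aNPC (top 14.6%), at chr3:37298235-37299151 in eA (14.7%) and at chr3:37202386-37202969 in lA (16.8%). A further region called in eA and lA and not in aNPC, chr3:37253337-37253638, had TGTGGT at its lA summit, as 13.8% of lA summits do.
Fgf2 lA, chr3:37253427-37253626: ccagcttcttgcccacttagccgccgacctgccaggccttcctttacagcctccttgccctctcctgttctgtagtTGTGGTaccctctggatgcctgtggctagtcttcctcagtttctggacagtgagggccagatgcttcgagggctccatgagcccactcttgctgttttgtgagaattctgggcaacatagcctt

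Igf1 encodes insulin-like growth factor 1. The gene (ENSMUSG00000020053.11, chr10:87321010-87399792, plus strand) has 9 coding starts, all poor in CpG with ratios of up to 0.481. H3K4me1 was called at the promoters at every stage, with the strongest peak at 24.3 in aNPC (chr10:87323174-87323897, top 18.6%), 11.3 in eA (chr10:87323441-87324187, 40.7%) and 15.5 in lA (chr10:87322792-87324192, 23.8%). Nearer start 1 there were weaker H3K4me1 peaks, of 5.26 and 2.99 in aNPC, 8.99 and 2.57 in eA and 9.72 in lA. H3K27ac was called at a promoter in eA alone, upstream of start 9 (chr10:87323455-87323741), with 4.21 (top 86.3%). Acetylation instead lay in the introns. In aNPC both peaks of the window belonged to chr10:87388639-87390743, 68.7 kb into the gene, which was in the top 23.9% of the aNPC list, 18.6% in eA and 13.8% in lA. Of the 12 distal regions, the other 11 were called only after aNPC, of which 4 were in both eA and lA, 1 in eA and 6 in lA. All 6 called in lA alone had a −log10 q under 5, and 5 of the 11 had a peak of at least 5. The strongest of the 11 was at 14.1 kb, chr10:87334249-87336057, with H3K27ac of 28.4 in eA (top 22.8%) and in the top 21.3% in lA, and with H3K4me1 of 29.8 in aNPC (top 12.0%), 25.3 in eA (10.9%) and 38.9 in lA (1.05%). At 46.3 kb, chr10:87366786-87367889 had H3K27ac of 8.88 in eA and 11.5 in lA on H3K4me1 of 9.03 in aNPC. At 5.17 kb, chr10:87325868-87326487 had 13.7 in eA and 10.6 in lA on aNPC H3K4me1 of 5.74, and beside it chr10:87325576-87325813 had 7.67 in eA alone. The strongest distal H3K4me1 was at the 14.1 kb region in aNPC and lA and at the 68.7 kb region in eA (chr10:87389143-87390621, 30.6). In all, 5 of the 11 overlapped an aNPC H3K4me1 peak. The eA summit at 14.1 kb held none of the motifs and is shown with CG in capitals, and the lA summit at 46.3 kb is shown with the NF1 half-site letters of the minus strand in capitals.
Igf1 14.1 kb eA, chr10:87334914-87335113: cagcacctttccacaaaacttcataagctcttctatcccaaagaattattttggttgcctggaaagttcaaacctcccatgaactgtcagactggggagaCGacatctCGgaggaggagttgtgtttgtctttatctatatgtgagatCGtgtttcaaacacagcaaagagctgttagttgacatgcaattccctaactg
Igf1 lA, chr10:87367349-87367548: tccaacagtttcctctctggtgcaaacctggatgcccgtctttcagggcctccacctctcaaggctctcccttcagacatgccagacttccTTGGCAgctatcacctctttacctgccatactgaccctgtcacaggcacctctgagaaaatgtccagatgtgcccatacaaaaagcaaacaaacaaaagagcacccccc

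Over the 8 genes there were 88 distal H3K27ac regions. Of these, 25 (28.4%) were called at all stages, 15 (17.0%) in aNPC and not at all stages, and 48 (54.5%) in eA or lA and not in aNPC. In the windows of all coding genes, 78231 distal regions divided into 20.4%, 30.4% and 49.3%. By exact pattern, 11 of the 88 were in aNPC alone, 6 in eA alone, 24 in lA alone, 1 in aNPC and eA, 3 in aNPC and lA, and 18 in eA and lA. In all windows these patterns made up 22.2%, 13.4%, 20.2%, 4.85%, 3.32% and 15.7%. The regions in lA alone that reached a −log10 q of at least 5 were 6 of 11 at Ntrk2 and 0 of 6 at Igf1. At Gdnf they were 2 of 3, at Vegfa 2 of 2 and at Fgf2 1 of 2. Of the 42 regions of the 7 factor genes, 32 (76.2%) were called in eA or lA and not in aNPC, as were 16 of 46 (34.8%) at Ntrk2. Of the 15 regions called in aNPC and not at all stages, 12 were at Ntrk2, 2 at Fgf2 and 1 at Vegfa, and the other genes had none. Regions of 1 gene share a locus and are not independent of one another, so no test was made of these shares.

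**Figure D4:**
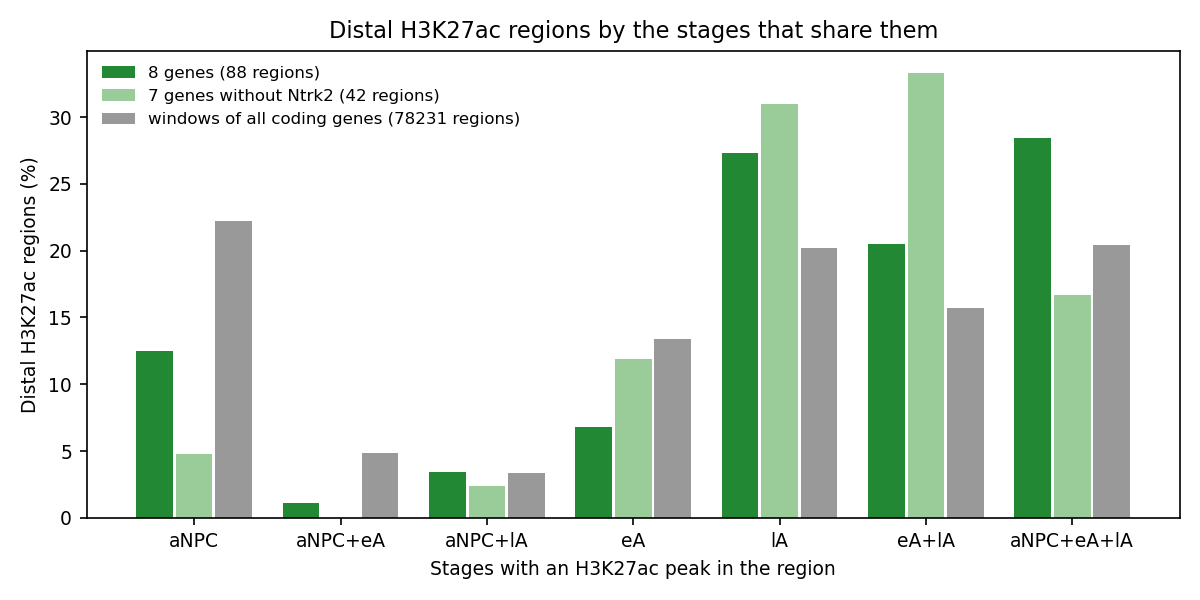
Distal H3K27ac regions by the stages in which a peak was called, in percent of the 88 regions at the 8 genes, the 42 at the genes other than Ntrk2 and the 78231 in the windows of all coding genes. Regions called in both eA and lA make up 33.3% of the regions at the 7 factor genes and 15.7% in all windows.

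Of the 48 distal regions that first carried H3K27ac after aNPC, 19 (39.6%) overlapped an H3K4me1 peak in aNPC, 17 (35.4%) first in eA, 6 (12.5%) first in lA, and 6 (12.5%) at no stage. In the windows of all coding genes, the shares of such regions were 50.8%, 26.2%, 10.0% and 13.0%. By gene the count with H3K4me1 in aNPC was 3 of 4 at Bdnf, 3 of 4 at Vegfa, 5 of 11 at Igf1, 2 of 5 at Fgf2, 1 of 3 at Gdnf, 5 of 16 at Ntrk2, 0 of 1 at Ntf3 and 0 of 4 at Cntf. With peaks of −log10 q of at least 5, 20 of 38 such regions (52.6%) had aNPC H3K4me1. No background was taken at that threshold, so a difference from all windows is not established. Among the 25 regions acetylated at all stages, 22 (88.0%) had aNPC H3K4me1, against 96.3% in all windows, and among the 15 called in aNPC and not at all stages 11 (73.3%) had it, against 75.7%. Conversely, H3K4me1 without acetylation was common. Of 169 joined H3K4me1 regions at the 8 genes, 87 (51.5%) met no H3K27ac peak at any stage, as did 57.5% in all windows, and at 18 of these 87 (20.7%) H3K4me1 was called at all stages, as at 20.3% in all windows.

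Within the 25 distal regions acetylated at all stages, the rank of H3K27ac was higher in lA than in aNPC at 20 (80.0%), against 53.7% of 15934 such regions in all windows. The median region was in the top 44.3% for aNPC, 29.2% for eA and 22.7% for lA. In all windows the medians were 36.0%, 34.1% and 32.7%. Because the lA list is longer than the aNPC list, the same count was made with lists of equal length. There it was 17 of 24 (70.8%), against 48.9% of 14912 regions in all windows, with medians of 41.8%, 29.4% and 25.9% at the 8 genes and 35.2%, 34.0% and 35.7% in all windows. With the lists as deposited, at Ntrk2 the count was 14 of 18 and at the other genes 6 of 7.

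**Figure D5:**
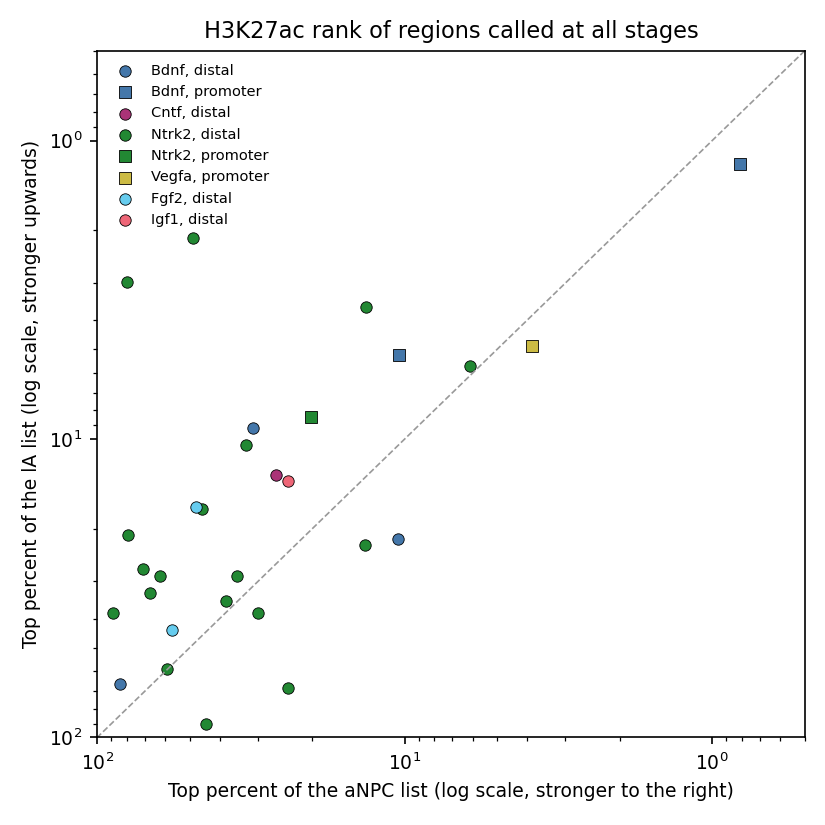
Rank of H3K27ac in the aNPC list (x axis) and in the lA list (y axis), both as top percent of the list on log scales with stronger peaks to the right and upwards, for distal regions (circles) and promoter regions (squares) called at every stage. Points above the dashed line of equal rank are regions that ranked higher in lA, which are 20 of the 25 distal regions.

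The letters searched at H3K27ac summits were TGTGGT (RUNX), TGANTCA (AP-1), TGCCAA (NF1 half-site) and TTCNNNGAA (STAT), on both strands within 200 bp. At the 8 genes, RUNX letters were present at 10.0% of 60 summits in aNPC, 14.9% of 74 in eA and 11.1% of 90 in lA, where all summits gave 13.6%, 13.0% and 13.8%. AP-1 letters were at 3, 9 and 5 summits, or 5.00%, 12.2% and 5.56%, against 5.83%, 5.70% and 5.67% of all summits. The NF1 half-site was at 11.7%, 10.8% and 12.2%, against 11.1%, 11.5% and 11.0%, and STAT letters were at 10.0%, 8.11% and 2.22%, against 5.82%, 6.14% and 6.15%. A match of these letters is no binding site by itself.

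Other genes of the same pathways, 31 in all, were counted in the same way. A promoter H3K27ac peak was called at 16 of them for aNPC, 22 for eA and 16 for lA, where 50.6%, 53.2% and 48.2% of all coding genes had one. A promoter H3K4me1 peak was called at 26 at each stage, against 55.4%, 53.6% and 52.7%. At 18 the window had more H3K27ac peaks in lA than in aNPC, against 39.0% of coding genes, at 11 fewer, against 24.2%, and at 2 the same number. Among neurotrophin genes, Ntrk3, which encodes TrkC, and Sort1, which encodes the sorting receptor sortilin, were acetylated at the promoter at every stage, whereas Ngfr, a receptor shared by the neurotrophins, was not at any. Ntf5 had a promoter H3K27ac peak in eA alone. Of the GDNF family, Gfra1, the GDNF co-receptor, had promoter acetylation throughout and went from 6 H3K27ac peaks in aNPC to 23 in lA, and Ret had none at its promoter. Lifr, a subunit of the CNTF receptor, was acetylated at each stage, Lif in eA alone and Cntfr at none. Kdr, the main VEGF-A receptor on endothelium, had the same promoter states as Gdnf and Fgf2, with 0 H3K27ac peaks for aNPC, 1 for eA and 4 for lA, and Flt1 had those of Igf1. All 4 FGF genes in this list (Fgf1, Fgfr1, Fgfr2 and Fgfr3) and Igf1r, Igfbp2, Igfbp4 and Igfbp5 had promoter acetylation at all stages, and Igf2 had no H3K27ac peak in its window at any. Bdnf, Ntrk2 and Vegfa shared the state of both marks at every stage with 33.9% of coding genes, whereas that of Gdnf and Fgf2 was found at 1.36%, that of Igf1 at 2.02% and that of Ntf3 at 0.792%.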

How the data were processed

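ChIP-seq of both marks was used as 6 deposited peak lists, 1 per stage and mark. The authors aligned reads to mm9 with Bowtie, merged 2 replicates with SAMtools and ran MACS2 with default settings and no input. In the deposited lists, peak strength is the −log10 of the q-value computed by the authors' caller, while starts, ends and summits are other columns. Peaks per sample, read depth, the knockdowns and the expression libraries (8 of the series' 51 samples stayed unassigned because labels conflict) were not analysed here. Mitochondrial peaks were removed. Genes and coding starts came from GENCODE M1 on mm9. Overlap meant at least 1 bp. Windows reached 20 kb beyond the gene. By rule, the text gives the promoter peaks of each gene (weaker ones by value alone), the strongest distal peak of each list, and distal H3K27ac regions at 1 or 2 stages with −log10 q of at least 5 in each. Other regions were picked after their values were seen. Sequences were read from mm9. The counting was tested on simulated data. The genes and lists were chosen with earlier results of these data known. Python 3.11.15, NumPy, pysam and samtools were used. Alternatives covered window size, peak threshold, list length, promoter width and the joining of peaks. Some genes of the companion and marker lists are counted but not reported here by name.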

Additional observations from a re-analysis of the deposited data

How the results depend on the processing

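Every value is from 1 merged list per stage, so depth could not be equalised and no error was available. The counts of H3K27ac and H3K4me1 peaks, of genes with promoter peaks and of genes with more H3K27ac peaks in lA than in aNPC stayed within 1.5 times of those reported with windows of 5 kb or 50 kb, with peaks of −log10 q of at least 5, with lists cut to equal length and with other promoter definitions. Differences between stages shrank with equal list lengths, to 60, 72 and 76 H3K27ac peaks and 109, 113 and 116 H3K4me1 peaks for aNPC, eA and lA. Genes with promoter H3K4me1, 8 in eA and lA, were then 7 in both, without Ntf3. The share of regions ranked higher in lA lay between 70.8% with equal list lengths and 87.5% with peaks joined. Within these sums, the direction at Ntrk2 turned with peaks of −log10 q of at least 5 (26 in aNPC and 30 in lA), and the lA count of Igf1 went from 13 to 5. Genes with promoter H3K27ac numbered 6 in eA at that threshold, without Igf1, and 7 in lA with promoters of 2.5 kb on each side. With the start sites of all transcripts, noncoding ones included, they numbered 4 in aNPC in place of 3. Leaving out Ntrk2, chosen after seeing the data, gave 21, 47 and 52 H3K27ac peaks and 59, 80 and 83 H3K4me1 peaks in aNPC, eA and lA, with 7 distal regions at all stages and 3 in aNPC but not all stages. Joining peaks less than 500 bp apart left 16 distal regions at all stages and 9 in aNPC but not all stages, and asking for a summit with −log10 q of at least 5 left 9 in the latter group. The share of late regions with aNPC H3K4me1 lay between 33.3% and 52.6% over all alternatives, the highest with peaks of −log10 q of at least 5, which was not set against a background of its own. Around the Bdnf site, 1 kb or 5 kb on each side gave 2 H3K27ac peaks in eA and 2 in lA. No paired analysis was possible because each list merges its replicates.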
